A study of Mus musculus with 4 samples.

Results

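Mitochondrial ribosomal proteins were taken as the genes whose symbol begins with Mrpl or Mrps followed by a number. The rule found 76 of the 23234 genes in the deposited table, each with a row of its own. Mitochondria keep a small genome that encodes core subunits of the respiratory chain, and those messages are read by a dedicated ribosome inside the organelle. Its RNAs come from the mitochondrial genome, while its proteins are encoded in the nucleus, made in the cytosol and imported. Some of these proteins descend from bacterial ribosomal proteins and others occur only in mitochondria. In red cell precursors this ribosome works at a stage when iron and haem metabolism in mitochondria are heavily used, before the cell discards its mitochondria.

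The cells were mouse erythroblasts, called ESREs in the labels, which cite a protocol for immature erythroblasts that renew themselves in culture. There were 4 groups with a single sample in each: proliferating cells with a non-targeting shRNA, proliferating cells with an shRNA targeting Setd8, and both kinds of cells after 6 h in maturation media. Setd8 is the enzyme that adds a single methyl group to lysine 20 of histone H4. All groups carried an shRNA, and the control was therefore not an untreated culture. The labels name no strain, age or sex and do not say whether cultures were pooled. Levels in FPKM (fragments scaled by transcript length and by the size of the library, so that genes of different length can be compared) were used for 3 libraries. All levels are of RNA, and where a protein is named with a level, the level is that of its RNA. Where 3 levels are given together, their order is control cells in proliferation, knockdown cells in proliferation, and control cells in maturation. Knockdown cells in maturation were not analysed here, so no value is given for the knockdown during maturation. As each group had 1 library, no difference below has a check against the spread between replicates.

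Setd8 stood at 25.1, 9.28 and 25.9 FPKM. Of 10 erythroid markers, 9 reached 1 FPKM in the proliferating control, 8 in the knockdown and 10 in the maturing control. Their summed level was 331, 311 and 401 FPKM in that order. In the knockdown 7 of the 10 had a lower value, at a median log2 ratio of -0.84, and Alas2, which starts haem production in erythroid cells, was called lower in the authors' deposited table, at 4.55 and 0.09 FPKM. Rhag, at 77.9 and 119.3 FPKM, was among the 3 with a higher value. In maturation 2 of the 10 were lower, and the median was 0.43. The 10 mast cell and basophil markers summed to 71.0, 501 and 38.1 FPKM, none of them was at 0, and 8 were called higher in the knockdown in the authors' deposited table. The 7 megakaryocyte markers summed to 14.6, 23.6 and 8.73 FPKM and the 7 myeloid markers to 4.77, 11.8 and 5.03 FPKM, with Elane and Lyz2 at 0 in every library. Of these, 3 megakaryocyte and 2 myeloid markers were called higher in the knockdown in the authors' deposited table, and 0 lower. Only 2 of these megakaryocyte and 1 of these myeloid markers reached 1 FPKM in any library. A single myeloid marker held 10.4 FPKM of the sum in the knockdown, and the other at 1 FPKM or more was lower, at a log2 ratio of -0.43. Beside all these marker calls, 9.05% of all tested genes were called in the knockdown. No lymphoid or stromal marker reached 1 FPKM. Judged from very low genes, the knockdown library was 1.44 times and the maturing control library 1.54 times as deep as the proliferating control. The part of these marker, depth and cell-state differences in the values below was not tested. In bulk samples fewer cells of a type and less RNA per cell cannot be told apart.

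The upstream sequences of a few members are shown first because the genes were spread over the genome, with 1 close pair. The 76 loci lay on 17 chromosomes, with chromosome 11 holding the most, at 10. Mrpl46, a protein of the large subunit, and Mrps11, a protein of the small subunit, were neighbours on chromosome 7. Their mm9 loci ran from 85920226 to 85927975 and from 85928016 to 85937874, a gap of 41 bases. The next closest pair, Mrpl10 and Mrpl45 on chromosome 11, was 266502 bases apart. RefSeq (GRCm38.p6) places the starts of Mrpl46 and Mrps11 back to back on opposite strands. The whole stretch between those starts, at chr7:78783090-78783130 on the plus strand of GRCm38.p6, is printed below, followed by the 100 bases before the start of 4 other members. The first is Mrpl32 (chr13:14613038-14613137, minus strand), which had one of the lowest ratios in the knockdown. Mrpl52 (chr14:54426809-54426908, plus strand) and Mrps21 (chr3:95871515-95871614, minus strand) had the highest RNA level of their subunit in the proliferating control. Mrpl12 (chr11:120484537-120484636, plus strand) encodes a protein of the stalk. Capitals mark a match to the motif of NRF1 (which has a free base near its middle) or of GABP and other ETS factors (CCGGAAG) on either strand.
Mrpl46/Mrps11: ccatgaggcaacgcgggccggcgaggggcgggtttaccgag
Mrpl32: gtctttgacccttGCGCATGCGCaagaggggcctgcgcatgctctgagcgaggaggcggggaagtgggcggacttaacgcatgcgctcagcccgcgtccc
Mrpl52: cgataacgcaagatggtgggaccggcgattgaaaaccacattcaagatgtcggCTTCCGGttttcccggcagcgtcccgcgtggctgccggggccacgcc
Mrps21: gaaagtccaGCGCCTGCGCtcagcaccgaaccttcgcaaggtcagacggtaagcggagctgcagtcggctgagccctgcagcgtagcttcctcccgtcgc
Mrpl12: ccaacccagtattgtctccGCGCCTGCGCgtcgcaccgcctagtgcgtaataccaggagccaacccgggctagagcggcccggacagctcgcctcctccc

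NRF1 and GABP are known as activators of nuclear genes for mitochondrial proteins. Of the 76 members, 67 matched the RefSeq promoter table, with 73 start sites between them. In the 250 bases before the start, the NRF1 motif was found at 9 of 73 start sites (12.3%), against 3.74% of all 32851 start sites and 9.44% of those of genes measured here. The GABP/ETS motif was found at 17 of 73 (23.3%), against 6.91% of all start sites and 15.8% of those of measured genes. For the respiratory chain these shares were 19.7% and 16.9%, and for cytosolic ribosomal proteins 1.37% and 26.0%. The YY1 motif (ATGGCGGC) was searched in the same way on both strands. It was found at 1 of 73 start sites (1.37%), against 1.03% of all and 2.12% of those of measured genes. The E-box (CACGTG) was found at 7 of 73 (9.59%), against 6.02% of all and 8.93% of those of measured genes. Those 7 start sites belonged to only 5 members, because the overlapping start sites of Mrpl2 were each counted. The GATA motif, bound by the GATA factors of blood cells, was found at 11 of 73 (15.1%), against 9.99% and 5.95%, with AGATAA as the letters searched. The CCAAT box was found at 28 of 73 (38.4%), in 25 members, against 33.8% and 36.7%. The 9 members with an NRF1 match had a median log2 ratio of -0.29 in the knockdown, and the 58 without one -0.21. With a GABP/ETS match the median was -0.31 over 17 members, and without one -0.23 over 50. For the other motifs the members with a match had the less negative median: -0.22 over 5 against -0.25 over 62 for the E-box, -0.20 over 11 against -0.26 over 56 for GATA, and -0.22 over 25 against -0.26 over 42 for CCAAT. The 1 member with a YY1 match was at -0.16, against -0.25 over the other 66. A match is a run of letters and not a measured binding site.

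All 76 genes were expressed in every library. Levels in the proliferating control ran from 2.69 to 80.3 FPKM with a median of 12.7 FPKM, and 68 members were at 5 FPKM or more. The medians of the knockdown and the maturing control were 10.4 and 11.8 FPKM. Summed over the 76 genes, the levels were 1172, 969.8 and 1135 FPKM, the last 2 being 82.7% and 96.8% of the proliferating control. The 2 subunits had near-equal medians: 12.4 FPKM over the 49 genes of the large subunit and 12.3 FPKM over the 26 of the small subunit in the proliferating control. Mrps18a and Mrps30, whose symbols name the small subunit, are counted with the large one, where their proteins sit. Mrps36 is counted with neither, since its protein belongs to the 2-oxoglutarate dehydrogenase complex. It was at 14.3, 11.2 and 14.7 FPKM.

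**Figure D1:**
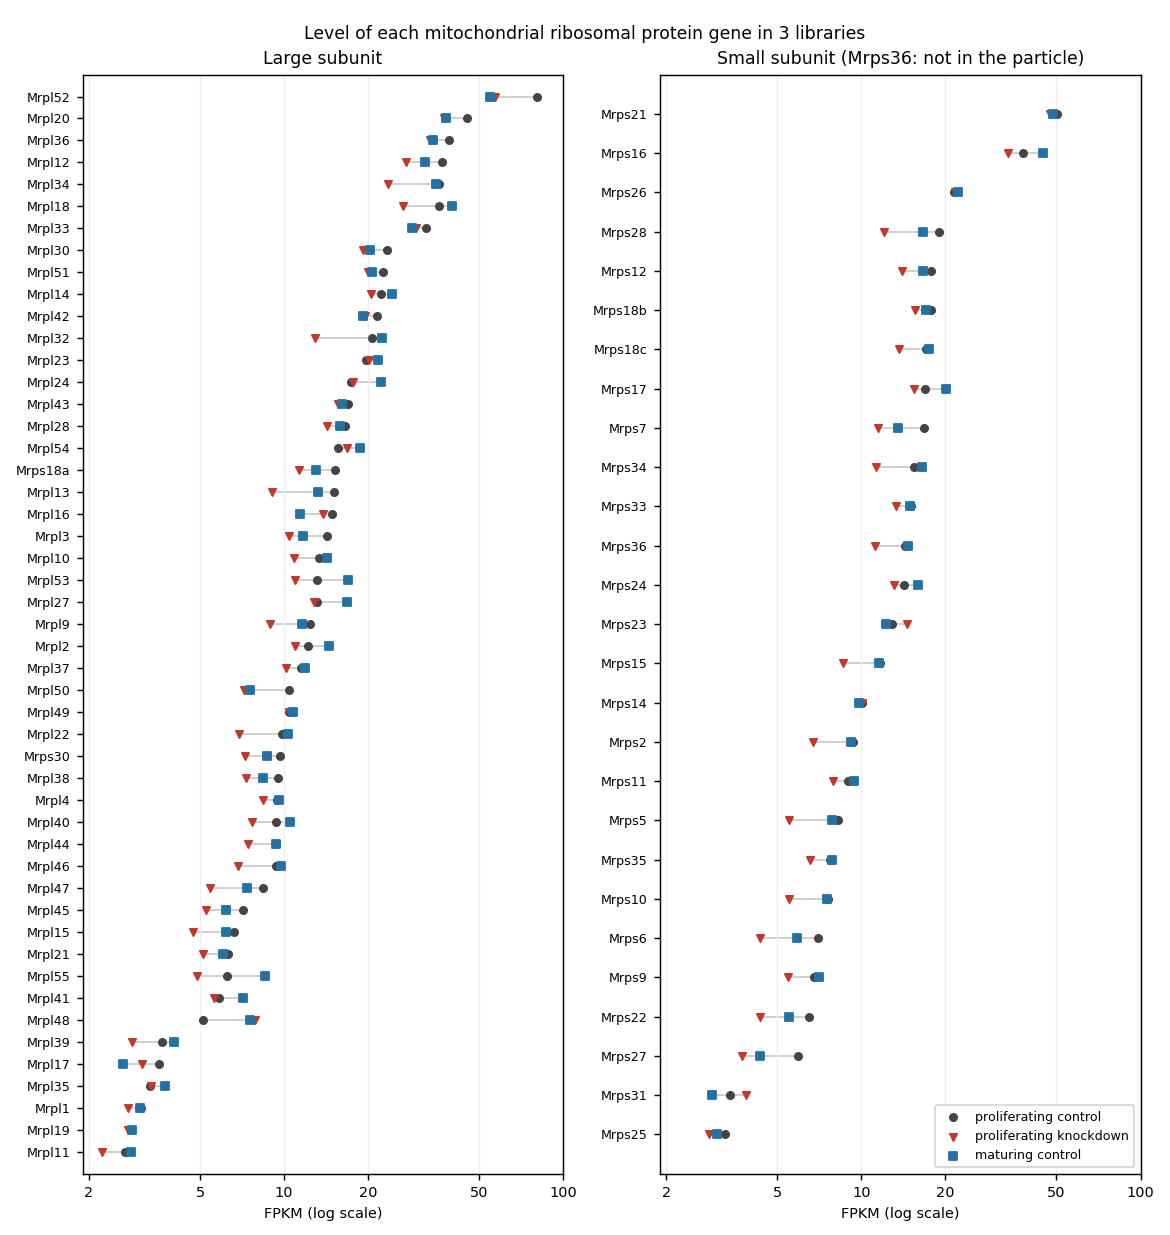
Level of each member in FPKM (log axis) in the proliferating control (circles), the proliferating knockdown (triangles) and the maturing control (squares), 1 library each, with a grey line from the lowest to the highest. In 61 of 76 genes the knockdown library is the lowest of the 3, and the order of the genes within a library is much the same in each.

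The order of abundance was much alike in the libraries, with some exchanges of place. Mrpl52, whose protein is found only in mitochondrial ribosomes, had the highest RNA level, at 80.3, 57.1 and 54.5 FPKM. Mrps21, which has a bacterial counterpart, followed at 50.2, 47.4 and 48.6 FPKM. Mrpl20, an early-binding protein of the large subunit in bacteria, was at 45.4, 37.4 and 38.1 FPKM. All 3 genes were highest in the proliferating control. Mrpl36 was at 39.0, 33.3 and 34.2 FPKM, and Mrps16 at 37.8, 33.6 and 44.6 FPKM, which placed it above Mrpl20 and Mrpl36 in the maturing control. At the low end were Mrpl11 of the stalk base (2.69, 2.22 and 2.83 FPKM), Mrpl19 (2.82, 2.77 and 2.85 FPKM) and Mrpl1 (3.07, 2.77 and 3.05 FPKM). Mrps25 (3.24, 2.83 and 3.05 FPKM) and Mrpl35 (3.31, 3.33 and 3.73 FPKM) completed the lowest group. Of the 10 most abundant genes in the proliferating control, 9 were also among the 10 most abundant in the knockdown and 9 in the maturing control, and 8 of the 10 least abundant were shared in each. The rank correlation of levels across the 76 genes was 0.97 between the proliferating control and either other library, a description in which each gene shares its length and sequence between libraries.

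In the proliferating knockdown most mitochondrial ribosomal protein genes had a slightly lower value than in the proliferating control, and none was called changed. Of the 76 genes, 67 had a lower value and 9 a higher one, where 52.8% of all 11665 tested genes and 61.3% of the 6560 tested genes at the members' level (2.69 to 80.3 FPKM in the control) had a lower value. The median log2 ratio of FPKM + 1 was -0.25, with the middle 50% of members between -0.41 and -0.12. The median was -0.09 over genes at the members' level and -0.05 over all 9611 genes measured at 1 FPKM or more. In the authors' deposited table a gene is called where q is at most 0.05. This was so for 0 of 76 members, against 9.05% of tested genes and 2.7% of those at the members' level, and 0 of 76 had a deposited p of 0.05 or less, against 14.7% and 6.3%. A log2 ratio of FPKM + 1 of -0.5 or below was held by 9 of 76 members, against 7.67% of tested genes and 10.3% at the members' level, and one of 0.5 or above by 1 of 76, against 9.83% and 6.66%. With the libraries centred on genes at 5 FPKM or more the median was -0.17 and 62 of 76 members were lower, as were 51.0% of genes at their level.

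The sizes were small beside the error of the authors' model. The knockdown level was 60.1% to 154% of the control level across the 76 genes: 11 genes lay at 60% to 70%, 22 at 70% to 80%, 22 at 80% to 90%, 12 at 90% to 100%, and 9 above. The standard error implied by the deposited statistic had a median of 0.52 on the log2 scale over the members, from 0.44 to 1.18, and the deposited ratio was larger than its standard error in 13 of 76. The 95% interval of that model held 0 for all 76 genes. The smallest called size among genes at the members' level was 1.18 on the log2 scale, and the largest size of a member was 0.73. None of the 5874 genes at that level with a ratio no larger than 0.73 was called.

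**Figure D2:**
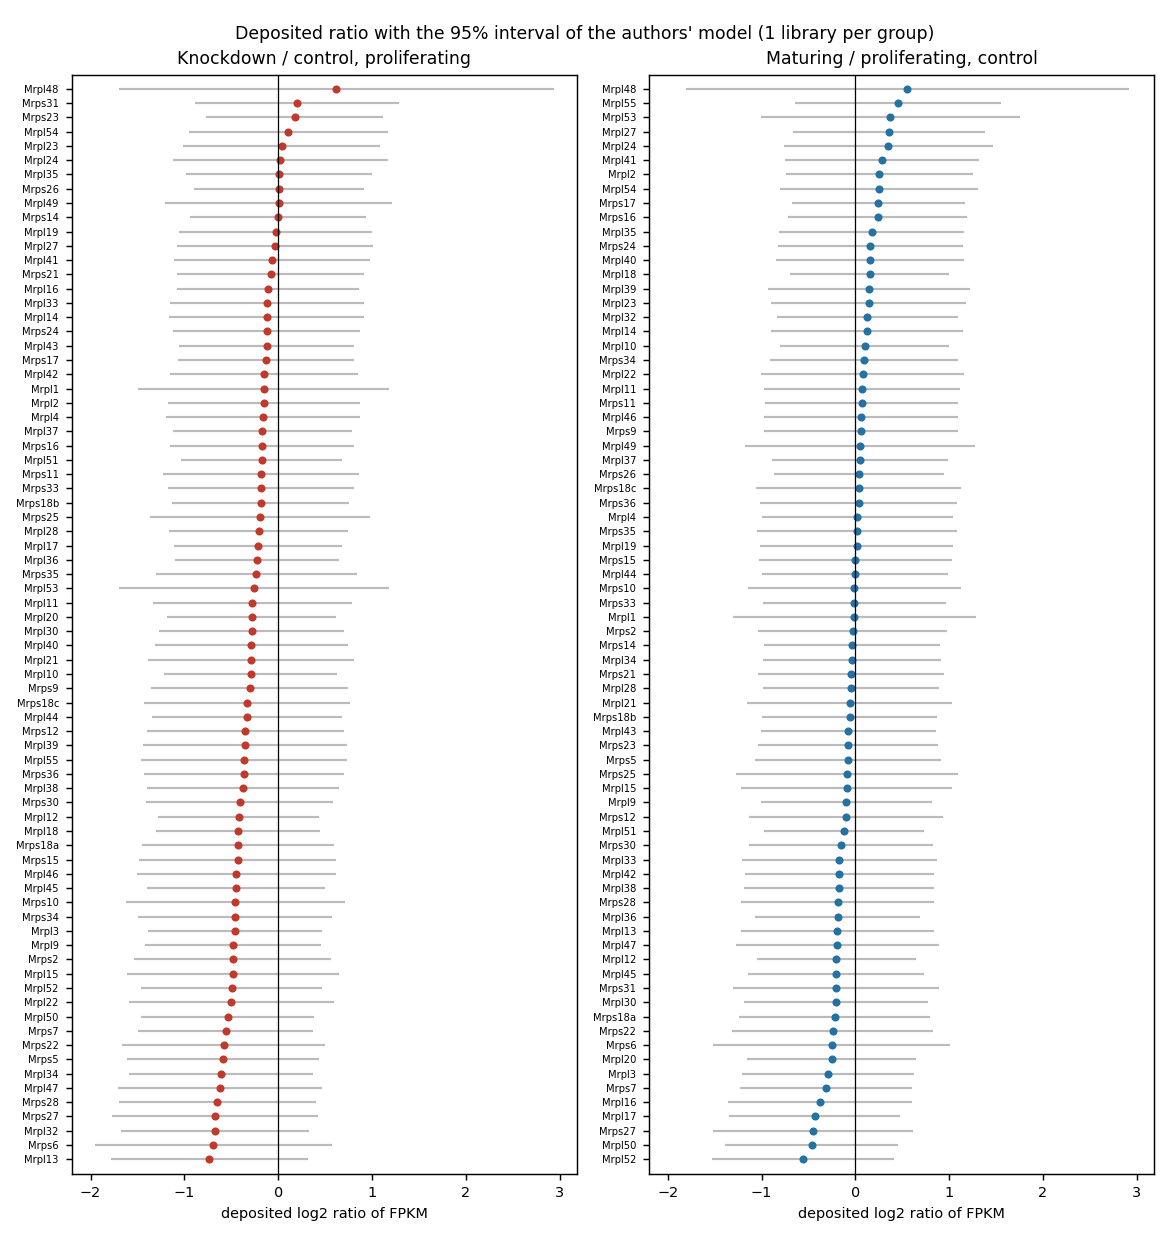
Deposited log2 ratio of FPKM of each of the 76 genes (points) with the 95% interval of the authors' model (bars), for knockdown against control in proliferating cells (left) and for maturing against proliferating control cells (right), ordered by ratio. All intervals hold 0; most points at left lie below 0, with 67 of 76 lower, against 43 of 76 at right.

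Among proteins of the large subunit, 43 of 49 had a lower value in the knockdown, at a median log2 ratio of FPKM + 1 of -0.25. Mrpl13 (chromosome 15, 55365649 to 55388867, mm9) had the lowest ratio of all members, at 15.1 FPKM in the control and 9.08 FPKM in the knockdown, which is 60.1% of the control. The authors' deposited table gave it a log2 ratio of -0.73 with p = 0.17 and q = 0.817, the lowest p of the 76 members. Mrpl32 (chromosome 13, 14702567 to 14705304), whose protein is matured by a protease of the mitochondrial inner membrane, was at 20.6 and 12.9 FPKM. Mrpl34, counterpart of a short bacterial protein, was at 36.0 and 23.6 FPKM. All 3 were thus at 60% to 66% of the control, and in the maturing control they stood at 13.2, 22.5 and 35.1 FPKM.

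Within the large subunit the medians of the parts considered ran from -0.14 to -0.34. The genes of the 4 stalk proteins, which meet the translation factors and the leaving tRNA, were all lower in the knockdown, at a median of -0.23. Mrpl12, the protein of the flexible stalk, was at 36.7 FPKM in the control and 27.4 FPKM in the knockdown. The genes of the 5 proteins near the peptidyl transferase centre (Mrpl2, Mrpl3, Mrpl4, Mrpl16 and Mrpl27) were lower at a median of -0.14. Mrpl16 was at 14.8 and 13.8 FPKM and Mrpl27 at 13.1 and 12.8 FPKM. Of the genes of 6 proteins around the exit tunnel, 4 were lower, at a median of -0.34. Mrpl23 (19.7 and 20.2 FPKM) and Mrpl24 (17.4 and 17.7 FPKM) were slightly higher. Of the genes of 5 proteins of the central protuberance, 4 were lower, at a median of -0.33.

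The exception in the central protuberance was Mrpl48 (chromosome 7, 107697630 to 107789782, mm9), which had the highest ratio of all members. It was at 5.12 FPKM in the control and 7.88 FPKM in the knockdown, 154% of the control, and its level in maturing control cells was 7.52 FPKM. The authors' deposited table gave it a log2 ratio of 0.62 with p = 0.599 in the knockdown. Its implied standard error, 1.18, was the largest of the 76 members, and its locus overlaps that of Rab6a in the deposited table, as 9 members overlap another gene. Without those 9 members, 61 of 67 were lower in the knockdown, at a median of -0.27. The next highest in the large subunit was Mrpl54, at 15.7 FPKM in the control and 16.9 FPKM in the knockdown.

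Among proteins of the small subunit, 23 of 26 had a lower value in the knockdown, at a median of -0.23. All 16 classed as having a bacterial counterpart were lower, at a median of -0.32. Of the 10 classed as specific to mitochondria, 7 were lower, at a median of -0.17. In the large subunit the order was not the same, with -0.23 over 30 members classed with a bacterial counterpart and -0.25 over 19 classed as specific. Mrps18a and Mrps18b were classed as specific, although they are related to Mrps18c, which was classed with a bacterial counterpart. Mrps28, which holds the place of a bacterial RNA-binding protein, was at 18.9 FPKM in the control and 12.1 FPKM in the knockdown. Mrps6 was at 6.99 and 4.33 FPKM, and Mrps27, a pentatricopeptide repeat protein, at 5.94 and 3.73 FPKM. The loci of Mrps6 and Mrps27 overlap those of Slc5a3 and 6430562O15Rik, and whether counting used strand is not stated. Mrps7, whose protein is among those that start assembly of the head in bacteria, was at 16.8 and 11.4 FPKM. The genes of the 4 head proteins considered (with Mrps9, Mrps10 and Mrps14) were all lower at a median of -0.33. Mrps12, the protein of the decoding centre, was at 17.8 and 14.0 FPKM. Higher values were held by Mrps23, at 12.9 and 14.6 FPKM, Mrps31, at 3.37 and 3.87 FPKM, and Mrps26, at 21.5 and 21.6 FPKM. Of the last 3, none differed by more than its implied standard error.

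The Mrps18 genes are a family of related proteins that occupy separate places in the ribosome. Mrps18a, in the large subunit, was at 15.2, 11.3 and 13.0 FPKM. Mrps18b was at 17.7, 15.6 and 17.0 FPKM, and Mrps18c at 17.1, 13.6 and 17.5 FPKM. The 3 genes had like levels and were each lowest in the knockdown library. Mrps30, another protein of the large subunit with a small-subunit name, was at 9.63, 7.24 and 8.66 FPKM. The divergent neighbours Mrpl46 and Mrps11 were at 9.32, 6.85 and 9.74 FPKM and at 8.96, 7.89 and 9.38 FPKM. The pair thus had like levels in both control libraries.

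After 6 h in maturation media the members were split between higher and lower values. Relative to the proliferating control, 43 of 76 were lower and 33 higher in the maturing control, at a median log2 ratio of FPKM + 1 of -0.02. With the libraries centred on genes at 5 FPKM or more, 38 of 76 were lower. A lower value was held by 46.5% of all 11298 tested genes and by 49.4% of those at the members' level, where the median was 0.002. The level was within 90% to 110% of the control for 37 members. None of the 76 (0 of 76) was called in the authors' deposited table, against 1.75% of tested genes and 0.991% of those at the members' level, and 0 of 76 had a deposited p of 0.05 or less, against 4.9% and 2.71%. The change of media and the time spent in them go together here and cannot be told apart.

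The widest ratios in maturation were held by genes of both subunits, with Mrpl48, given above, the highest. Mrpl52 (chromosome 14, 55045745 to 55048587, mm9) had the lowest, at 67.8% of the control, and was the 1 member whose deposited ratio was larger than its implied standard error. The authors' deposited table gave it a log2 ratio of -0.56 with p = 0.257. Mrpl50 went from 10.4 FPKM in the proliferating control to 7.54 FPKM in the maturing control, Mrps27 from 5.94 to 4.34 FPKM and Mrpl16 from 14.8 to 11.4 FPKM. In the knockdown library Mrpl50 was at 7.18 FPKM. Mrps7, at 13.6 FPKM, was likewise below its proliferating control. On the other side were Mrpl55, at 6.26 and 8.56 FPKM, Mrpl53, at 13.1 and 17.0 FPKM, Mrpl27, at 13.1 and 16.8 FPKM, and Mrpl24, at 17.4 and 22.2 FPKM, none of them called. In the knockdown library Mrpl55 was at 4.87 FPKM and Mrpl53 at 11.0 FPKM. The loci of Mrpl53 and Mrpl24 overlap those of Ccdc142 and Rrnad1. The large subunit had a median of -0.01 and the small subunit -0.03.

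A last pair in the deposited table sets the proliferating knockdown against the maturing control, which differ in the shRNA and in the time in maturation media at once. In the knockdown 67 of 76 members were lower than in the maturing control, at a median log2 ratio of -0.23. A lower value was held by 54.8% of the 9241 tested genes of that pair and by 61.1% of those at the members' level. The authors' deposited table called 0 of 76 there, against 11.6% of tested genes and 5.38% at the members' level, and 0 of 76 had a deposited p of 0.05 or less, against 18.6% and 10.7%. This pair uses the same libraries as the others and adds no new measurement.

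**Figure D3:**
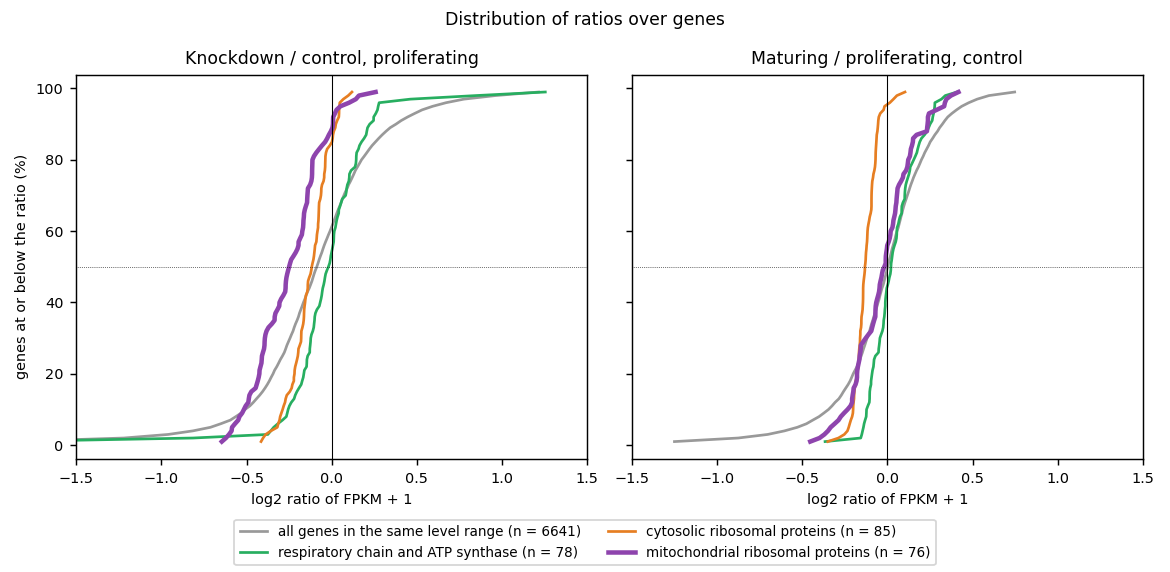
Cumulative distribution of log2 ratios of FPKM + 1 (x axis, shown from -1.5 to 1.5) over genes (y axis, percent) for the 76 members, all 6641 genes at the same control level, the respiratory chain and cytosolic ribosomal proteins. At left (knockdown) the members' line crosses 50% at -0.25, to the left of the others; at right (maturation) it crosses at -0.02, close to the line of all genes, while cytosolic ribosomal proteins cross at -0.13.

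The related gene sets were set beside the members as descriptions. This ribosome makes partners for many, though not all, of the nuclear-encoded proteins of the respiratory chain and ATP synthase. Over the 78 measured genes of that set the median log2 ratio in the knockdown was -0.02, with 42 lower. In the knockdown the authors' deposited table called 3 of the 78, against 9.05% of all tested genes (1.75% in maturation). The 3 were Cox6b2, lower at 15.8 and 0.1 FPKM, and Cox7a1 (1.79 and 6.54 FPKM) and Cox7b (35.7 and 83.2 FPKM), both higher. For the 85 measured rows of cytosolic ribosomal proteins the median was -0.12, with 72 lower and 0 called. They include pseudogene rows, such as Rps19-ps3 and Rplp2-ps1. For Rplp2-ps1 and the joint row of Gm9846 and Rps27 the data were marked too low for a test in the knockdown. In maturation the medians were 0.02 for the respiratory chain, with 35 lower, and -0.13 for the cytosolic ribosome, with 81 lower, with 0 called in either. The members were thus lower than either set by median in the knockdown but above the cytosolic set in maturation. No test of these differences was possible with 1 library per group.

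Ribosomal subunits whose symbols lie outside the rule had values like those of the members. Of 7 such genes, 6 were lower in the knockdown, at a median of -0.34, and 4 in maturation, at a median of -0.02. In either, 0 were called, against 9.05% and 1.75% of tested genes. Gadd45gip1, a protein of the large subunit, was at 13.5, 8.03 and 14.2 FPKM. Ict1, a release factor built into the large subunit, was at 6.03, 6.32 and 8.36 FPKM.

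Among 21 genes that build the mitochondrial ribosome, 1 was called in the knockdown and 0 in maturation, against 9.05% and 1.75% of tested genes. Of 21 genes of assembly and rRNA modification, 19 were lower in the knockdown, at a median of -0.22, and 7 in maturation, at a median of 0.09. Gtpbp10, a GTPase of large subunit assembly, was called lower in the knockdown in the authors' deposited table, at 1.29, 0.0601 and 1.60 FPKM. Fastkd2, an RNA-binding assembly factor, was at 3.94, 1.95 and 4.09 FPKM and was not called. Rbfa, which helps mature the small subunit RNA, was at 18.7, 27.6 and 13.2 FPKM, the highest ratio of this list in the knockdown.

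The remaining lists of mitochondrial gene expression held no call in the knockdown or in maturation, each against the proliferating control. The shares of all tested genes called were 9.05% and 1.75%, at which lists this short would hold few calls. Of 11 measured translation factors, 8 were lower in the knockdown, at a median of -0.11. Tufm, which brings aminoacyl-tRNA to the ribosome, was at 20.2, 14.0 and 17.7 FPKM, and Gfm2, which acts in ribosome recycling, at 4.53, 5.49 and 4.17 FPKM. Of 19 measured mitochondrial tRNA synthetases and related enzymes, 14 were lower, at a median of -0.12. Sars2 had the lowest ratio, at 2.65, 1.68 and 3.73 FPKM, and Nars2 the highest, at 3.29, 5.42 and 1.46 FPKM. Of 12 genes of mitochondrial DNA upkeep and transcription, 9 were lower, at a median of -0.11. In that list the single-stranded DNA-binding protein Ssbp1 was at 5.35, 3.60 and 5.31 FPKM. Polg, the mitochondrial DNA polymerase, was at 12.2, 27.4 and 7.70 FPKM, with q = 0.0592 for the knockdown against the proliferating control in the authors' deposited table. Between the knockdown and the maturing control, the authors' deposited table called Polg and Nars2 higher in the knockdown, where 11.6% of tested genes were called. In maturation the medians of these 3 lists were -0.01, 0.04 and -0.01.

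Measured regulators of mitochondrial biogenesis ranged from 0.89 to 45.5 FPKM in the proliferating control, with a median of 6.90 FPKM. Ppargc1a was under 1 FPKM in every library and is left out. Of 8 measured genes, 5 were lower in the knockdown, at a median of -0.15, and 4 in maturation, at a median of -0.05. In either, 0 were called, against 9.05% and 1.75% of tested genes. Myc, which drives ribosome production in growing cells, was at 45.5, 28.4 and 28.6 FPKM. Nrf1, whose motif is given above, was at 7.19, 7.23 and 5.91 FPKM, and Gabpa at 6.62, 5.19 and 7.55 FPKM. The nuclear receptor Esrra, at 4.50, 5.28 and 3.95 FPKM, had the highest ratio of this list in the knockdown.

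**Figure D4:**
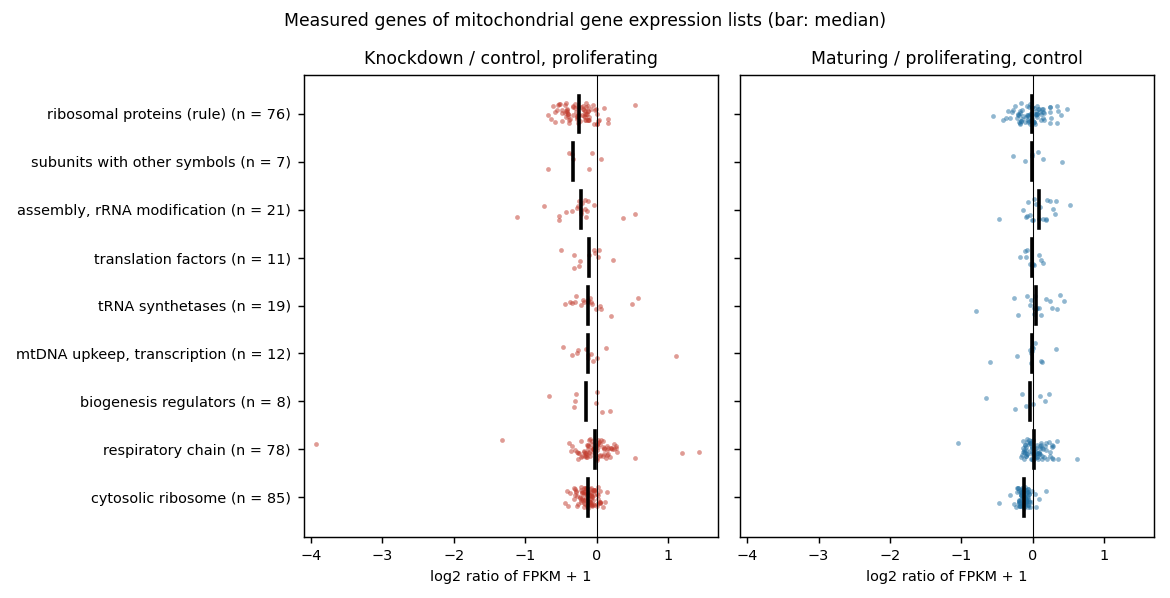
Log2 ratio of FPKM + 1 (x axis) of each measured gene (points, spread vertically for sight only) in the members and 8 related lists, with black bars at the medians, for knockdown against control (left) and maturing against proliferating control (right). Medians at left run from -0.34 for subunits with other symbols to -0.02 for the respiratory chain; at right they lie between -0.13 and 0.09.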

How the data were processed

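The authors deposited 1 table of pairwise comparisons with FPKM values, log2 ratios, test statistics, p-values and q-values, per the file headers. Cufflinks 2.0.2, Cuffdiff, FastQC 0.10.1 and mm9 are named in the submitters' processing notes. No aligner or annotation is stated there, nor how fragments shared with pseudogenes or overlapping genes were assigned. The values were read as FPKM, which the authors' Cuffdiff writes. The knockdown library was matched by the target and the number in its name. Ratios were computed as log2(FPKM + 1), which understates changes of low genes. No test was run, and the calls are those of the authors' deposited table. The implied standard error is the deposited log2 ratio over the deposited statistic, with intervals from the normal distribution. FPKM gives no absolute depth, and relative depth came from genes under 0.03 FPKM.

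Members and lists were chosen with earlier results of these data known. Named members were the 5 highest and 5 lowest ratios per comparison at 5 FPKM or more, the 5 highest and lowest control levels, any called member and 7 picked by role. Others, and the groups by place in the ribosome, were chosen after values were seen. S6 kinases, Rps19bp1 and Cox4nb were removed from the pattern lists by name, while pseudogene rows of cytosolic ribosomal proteins were kept. RefSeq served for synonyms and promoters. A shift put on simulated member values came back as their median, which follows from how those values were made. It does not check the medians reported here. Python 3.11.15, pandas 2.3.3 and scipy 1.17.1 were used.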

Additional observations from a re-analysis of the deposited data

How the results depend on the processing

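Alternatives were pseudocounts of 0.1 and 5, no filter or one at 5 FPKM, the mean, 4 scalings (centring, equal upper quartile, TPM, equal sum without globins), members placed in the particle, and stricter calls. The deposited calls were not recomputed under the pseudocounts, the mean or the scalings. Stricter calls could only remove calls, and no member had one to begin with. The knockdown median ranged from -0.28 with a pseudocount of 0.1 to -0.17 with centring or a pseudocount of 5, and 62 to 67 of 76 members were lower across scalings. The maturation median stayed near 0: -0.029 with the filter at 5 FPKM, -0.0066 with centring and -0.028 as TPM. Centring shifted the knockdown ratios by 0.09. For 34 named members, 408 of 408 alternative ratios moved by less than the implied standard error, which was 0.43 or more throughout. These settings move ratios by much less than that, so the count could hardly have differed and does not show robustness. Each group had 1 library, so none could be left out. No paired analysis was possible because each group had 1 sample. The comparison within maturing cells was not run.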
